A study of Mus musculus with 2 samples.

Results

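The genes described here are the Bcl2 family members Bcl2, Bcl2l1, Mcl1, Bak1, Bcl2l11, Bid and Bbc3, together with Apaf1, as measured in mouse glomeruli. They were chosen by name, as all probe sets whose platform annotation gave exactly 1 gene symbol from a list of 9 genes. Of these 9, 8 had a named probe set and gave 28 probe sets, out of 18193 genes and 34945 probe sets with 1 symbol in all. No probe set was named for Bax, the remaining gene of the list, which is not analysed here, and no caspase belongs to the list.

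Glomerular RNA came from male C57BL/6J mice, and each genotype had 1 array. The double knockout carried GC-A fl/fl and p38 fl/fl alleles together with Nephrin-Cre (Cre/+), in which the nephrin promoter drives Cre in podocytes, the filtering epithelium of the glomerulus. The floxed control carried the same GC-A fl/fl and p38 fl/fl alleles with Nephrin-Cre (+/+), read here as lacking the Cre allele. Both were 2 months old and had been fed 6% NaCl and given aldosterone by minipump (0.2 µg/kg per minute) for 3 weeks, so no untreated or unfloxed group stands beside them. GC-A is a natriuretic peptide receptor and p38 a stress-activated kinase. The number of mice behind each array is not stated in the labels. With 1 array per genotype, no difference below has a replicate check, and the text describes these arrays only.

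Proteins of the Bcl2 family decide whether the outer mitochondrial membrane is opened during apoptosis. Survival proteins (Bcl2, Bcl-xL from Bcl2l1, and Mcl1) hold the pore-forming effectors Bax and Bak in check, and BH3-only proteins such as Bim (Bcl2l11), Bid and Puma (Bbc3) either neutralise the survival proteins or engage the effectors. Once the membrane is open, cytochrome c binds Apaf1, which assembles into the apoptosome and activates caspase 9. In podocytes, which hardly divide, loss of cells is a feature of glomerular disease. Much of the control of these proteins takes place after transcription, by cleavage, phosphorylation and turnover, which transcript levels do not show.

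Values are MAS5 signals, a linear intensity per probe set after each array was scaled to the same trimmed mean. A signal under 52.7, the floor, was taken as not measured and raised to that value before logs were taken. Differences are log2 of the double knockout minus log2 of the floxed control. Signals of single genes are compared between arrays for 1 probe set at a time, and signal levels are not compared between genes. Marker signals are also summed per list, where bright probe sets weigh most, and log2 differences of genes are set against each other.

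The signals of cell type markers differed between the arrays, and these values touch every result. All 13 measured podocyte markers had higher signals in the double knockout, with the slit diaphragm gene Nphs1 at 8373 in the double knockout against 5320 in the floxed control, so podocyte RNA was present on both arrays. Over 51 measured markers of podocytes, endothelium, mesangium and parietal epithelium the median log2 difference was 0.65. Tubule RNA was also present on both arrays, as the phosphate transporter gene Slc34a1 read 15607 in the double knockout against 22597 in the floxed control. All 15 measured proximal tubule markers were lower in the double knockout (median -0.84), with summed signals of 113390 in the double knockout against 191027 in the floxed control. The 15 distal tubule and collecting duct markers were lower as well (median -0.67), with summed signals of 45335 in the double knockout against 63989 in the floxed control. The 15 macrophage markers were higher (median 0.90), with summed signals of 16008 in the double knockout against 8804 in the floxed control. All 7 measured neutrophil markers were lower (median -0.29), several of them below the floor in the double knockout. Of 6 measured lymphocyte markers, 5 were higher (median 0.21). Markers of these lists below the floor in the floxed control were Robo2, Cnn1, Aif1 and Itgam, so their differences are lower bounds. In bulk RNA, fewer cells of a type and less RNA per cell cannot be told apart. The targeted gene Npr1 (the GC-A gene) read 102 in the double knockout against 167 in the floxed control. The brightest probe set of Mapk14, the gene of p38α, had 2607 in the double knockout against 2628 in the floxed control, and where these probe sets lie relative to the deleted exons is not given in the sources used here.

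Of the 28 probe sets, 27 reached the floor on at least 1 array and 25 on both. By the probe set that stands for each gene, 7 of the 8 genes had a higher signal in the double knockout, beside 56.1% of measured genes, and Bid had a lower one; when all differences were recentred on the glomerular cell markers, which subtracts 0.65 from each, Bcl2, Bcl2l1, Mcl1, Bak1 and Bbc3 turned to the other side of 0. None of the 8 genes was at least 2-fold higher, beside 3.53% of the 13290 measured genes, and none at least 2-fold lower, beside 2.87%. None of the 27 measured probe sets was at least 2-fold higher or lower, beside 3.27% and 2.39% of all those with 1 gene. At least 1.5-fold higher were Apaf1, Bcl2l11, Bcl2 and Bbc3, 4 of 8 genes beside 13.7% of measured genes, and at least 1.5-fold lower was Bid, 1 of 8 beside 10%. Among measured probe sets, 11 of 27 were at least 1.5-fold higher, beside 13.3% of all such sets, and 2 of 27 at least 1.5-fold lower, beside 9.17%. The median log2 difference of the 8 genes was 0.54 and that of all measured genes 0.07. After recentring on the glomerular markers the median of the 8 genes was -0.11.

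**Figure D1:**
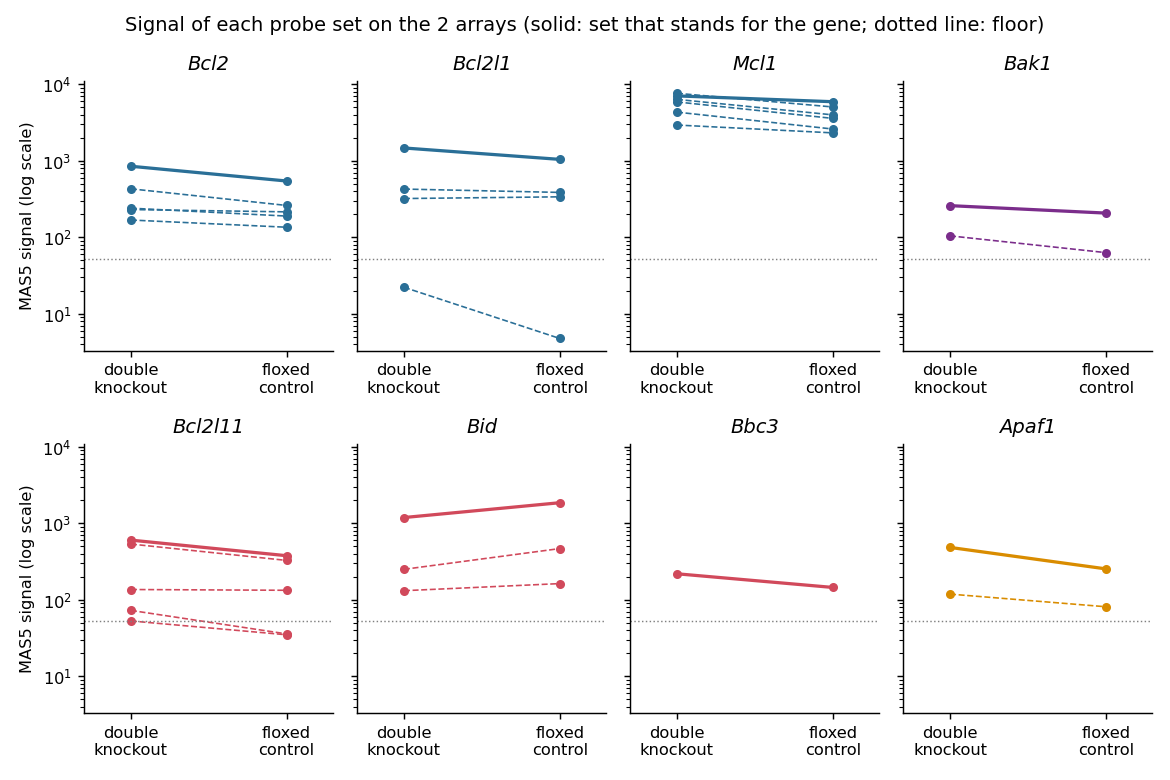
Signal of all 28 probe sets on a log axis, 1 panel per gene, with the double knockout array left and the floxed control array right; the solid line is the probe set that stands for the gene and the dotted line the floor of 52.7. Lines slope down to the floxed control in most panels, up in all 3 probe sets of Bid, and stay nearly flat in the dimmer measured sets of Bcl2l1. The Bcl2l1 set below the floor on both arrays falls from 22.2 in the double knockout to 4.75 in the floxed control and carries no difference. Recentring on glomerular markers, not drawn here, turns the direction of Bcl2, Bcl2l1, Mcl1, Bak1 and Bbc3.

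Bcl2, the founding survival gene of the family, had 5 probe sets, all above the floor on both arrays. The one that stands for the gene (1457687_at) read 847 in the double knockout against 543 in the floxed control, a log2 difference of 0.64 or 1.56-fold. A second (1437122_at) had 429 in the double knockout against 260 in the floxed control, a log2 difference of 0.72. These were the larger differences of the gene. The set 1422938_at gave 240 in the double knockout against 189 in the floxed control (0.34), and the set 1440770_at 168 in the double knockout against 135 in the floxed control (0.31). A set prone to cross-hybridisation gave 230 in the double knockout against 215 in the floxed control (0.10). All 5 therefore had the higher signal in the double knockout, by amounts between 1.07-fold and 1.65-fold. Recentred on the glomerular markers, the first probe set was at -0.01.

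Bcl2l1, whose long product Bcl-xL is a survival protein and whose short splice form promotes death, was the only one of the 8 genes whose measured probe sets lay on both sides of 0. Its main probe set (1420888_at) had 1468 in the double knockout against 1042 in the floxed control, a log2 difference of 0.50. Another set had 426 in the double knockout against 385 in the floxed control (0.15). One more had 320 in the double knockout against 337 in the floxed control (-0.07), the opposite direction. The last set (1426050_at) was below the floor on both arrays, at 22.2 in the double knockout against 4.75 in the floxed control, and carries no difference. Which splice form each probe set reads is not given in the sources used here.

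Mcl1, a short-lived survival protein that binds Bak and Bim, had 6 probe sets and higher signals in the double knockout in all of them. The set that stands for the gene (1448503_at) had the smallest difference of the 6, at 7038 in the double knockout against 5908 in the floxed control (0.25). The set 1416880_at had 5868 in the double knockout against 3577 in the floxed control (0.71). The set 1416881_at had 2928 in the double knockout against 2313 in the floxed control (0.34). The 3 cross-hybridising sets gave log2 differences of 0.59, 0.67 and 0.73, with signals of 7612, 6336 and 4317 in the double knockout against 5045, 3977 and 2597 in the floxed control. The values formed a lower group of 0.25 and 0.34 and an upper group from 0.59 to 0.73. The choice of probe set thus moved Mcl1 between 1.19-fold and 1.66-fold, and the median over its sets was 0.63.

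Bak1, the effector that can form the mitochondrial pore without Bax, had 2 probe sets. The brighter (1418991_at) had 259 in the double knockout against 207 in the floxed control, a log2 difference of 0.32. The other (1425716_s_at) had 104 in the double knockout against 63.0 in the floxed control, near the floor, with a difference of 0.73. Both were higher in the double knockout, and the dimmer set by the larger ratio.

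Among the BH3-only genes, Bcl2l11 and Bbc3 were higher in the double knockout and Bid was lower; Bbc3 turned to -0.06 after recentring on glomerular markers, and Bcl2l11 was then at 0.02. Bcl2l11 encodes Bim, which binds all main survival proteins and is induced by FoxO factors on withdrawal of growth factors. Its main probe set (1456005_a_at) had 605 in the double knockout against 379 in the floxed control, a log2 difference of 0.68. The set 1435448_at had 538 in the double knockout against 328 in the floxed control (0.71). The set 1435449_at did not follow them, at 137 in the double knockout against 134 in the floxed control (0.03). The set 1426334_a_at had 73.0 in the double knockout against 36.0 in the floxed control, and the set 1456006_at had 53.1 in the double knockout against 35.03 in the floxed control. In both the floxed control was below the floor, so the folds are lower bounds, at least 1.39-fold and at least 1.01-fold higher. The 2 brightest sets thus differed by like amounts, and the third set above the floor on both arrays showed almost no difference.

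Bbc3 encodes Puma, a target gene of p53 that binds the survival proteins. Its only probe set (1423315_at) had 220 in the double knockout against 146 in the floxed control, a log2 difference of 0.59 or 1.51-fold. With 1 probe set, no second reading of the gene was available.

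Bid links the death receptors to mitochondria, since caspase 8 cleaves it into an active fragment. Its main probe set (1417045_at) had 1194 in the double knockout against 1865 in the floxed control, which is 1.56-fold lower (log2 difference -0.64). The set 1448560_at had 251 in the double knockout against 469 in the floxed control (-0.90), and the cross-hybridising set 132 in the double knockout against 163 in the floxed control (-0.31). All 3 sets had the lower signal in the double knockout, and Bid was lower under every one of the 12 alternative floors, scalings and probe set rules tried. Most of these could not turn its sign. With all 3 sets lower, no probe set rule could, and recentring only subtracts. Floors at the 25th and 60th percentiles and no floor left Bid at -0.64. Only 8.46% of measured genes had a lower difference. It lay beside the medians of the distal tubule (-0.67) and proximal tubule markers (-0.84), and recentring on the glomerular markers put it at -1.30. Their part in the result was not tested.

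Apaf1, the scaffold of the apoptosome, had the largest difference among the 8 genes. Its main probe set (1452870_at) had 486 in the double knockout against 255 in the floxed control, a log2 difference of 0.93 or 1.91-fold. The other (1450223_at) had 119 in the double knockout against 81.5 in the floxed control (0.55). Of measured genes, 95.4% had a lower difference. Markers of macrophages (median 0.90), parietal epithelium (0.86), mesangium (0.72), endothelium (0.68) and podocytes (0.64) were also higher. Their part in this result was not tested. After recentring on glomerular markers the main set was at 0.28 and the other at -0.11.

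**Figure D2:**
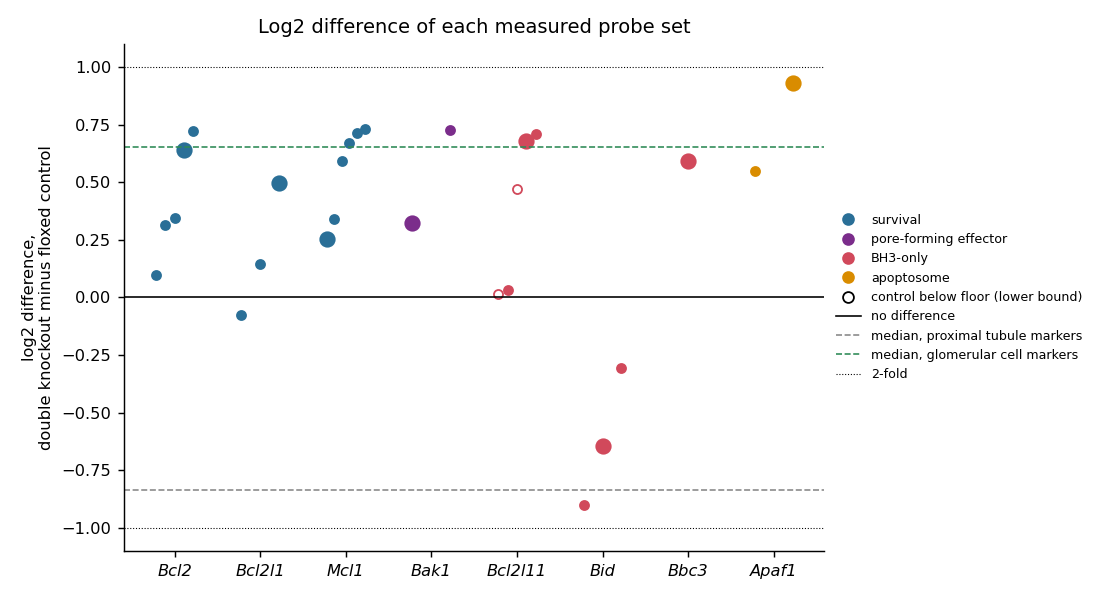
Log2 difference (double knockout minus floxed control) of the 27 measured probe sets by gene, coloured by role, with large points for the set that stands for the gene and open points for lower bounds. Most points lie between 0 and the dashed line at 0.65, the median of glomerular cell markers to which recentring would move 0; Bid lies below 0 in all 3 sets, from -0.90 to -0.31, with the proximal tubule median drawn at -0.84, and no point passes the dotted 2-fold lines.

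Promoter sequence is shown for the genes with the highest and the lowest difference, Apaf1 and Bid, and for Bcl2, the survival gene with the largest difference by its main probe set. Each run is the 250 bases before a transcript start from RefSeq on GRCm38.p6, written 5′ to 3′ on the gene's own strand, with the GC box GGGCGG (either strand) in capitals. The Apaf1 window is chr10:91082744-91082993, the Bcl2 window chr1:106714291-106714540 and the Bid window chr6:120916825-120917074, all on the minus strand. The Bid start of that table lies inside the annotated span of the gene, so a longer transcript may cover part of the window.
Apaf1: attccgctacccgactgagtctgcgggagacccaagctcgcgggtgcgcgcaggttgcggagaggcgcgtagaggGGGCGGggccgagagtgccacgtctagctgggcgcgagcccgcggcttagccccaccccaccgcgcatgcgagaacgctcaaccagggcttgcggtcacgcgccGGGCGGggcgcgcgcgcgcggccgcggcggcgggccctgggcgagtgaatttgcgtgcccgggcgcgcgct
Bcl2: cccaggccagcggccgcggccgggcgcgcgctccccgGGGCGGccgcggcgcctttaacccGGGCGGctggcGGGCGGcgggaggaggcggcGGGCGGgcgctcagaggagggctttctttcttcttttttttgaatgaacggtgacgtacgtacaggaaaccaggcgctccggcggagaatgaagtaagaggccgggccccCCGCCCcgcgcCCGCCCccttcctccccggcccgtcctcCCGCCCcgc
Bid: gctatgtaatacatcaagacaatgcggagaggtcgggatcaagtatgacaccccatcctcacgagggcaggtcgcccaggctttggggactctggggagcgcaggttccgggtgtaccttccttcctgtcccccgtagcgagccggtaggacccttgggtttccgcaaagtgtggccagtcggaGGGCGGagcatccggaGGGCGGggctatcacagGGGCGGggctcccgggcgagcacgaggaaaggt
The Apaf1 window had 75.6% G and C and 42 CpG steps, that of Bcl2 74.8% and 36, and that of Bid 63.6% and 18, while the median over 32817 such windows was 52.4% and 6. The GC box was found 2 times before Apaf1, 7 times before Bcl2 and 3 times before Bid, and 32.7% of all windows held it. The 3 boxes of Bid lay between 33 and 66 bases before the start. The windows of Bcl2l1 (47.6% to 53.2% G and C) and Bak1 (58.4%), genes with a higher signal, held no GC box. All windows of Bcl2l1, Mcl1 and Bbc3 lie inside the annotated spans of these genes, so the sequence before their outermost starts was not searched.

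All 9 listed genes, Bax included, had windows, 14 in all, because Bcl2l1, Bcl2l11 and Bbc3 have several starts and 2 Bbc3 windows overlap. A GC box was in 10 of the 14. A CCAAT box (CCAAT) was in 3 of 14 beside 33.8% of all windows, and no member window held a TATA box (TATAAA, 12.4% of all). The FoxO site GTAAACA was in 2 of 14, before 1 start each of Bcl2l11 and Bbc3, beside 3.16% of all windows. An E2F site (TTTGGCGC, TTTCCCGC, TTTCGCGC or TTTGCCGC) was in 1 of 14, before a Bcl2l1 start, beside 1.86%. The ETS site CCGGAAG and the E-box CACGTG were in 2 of 14 each, beside 6.90% and 6.02%. The short cyclic AMP element TGACG was in 2 of 14 beside 17.7%, and its full form TGACGTCA, which contains the short one, in 0 of 14 beside 1.55%. No member window held the AP-1 site TGANTCA (6.75% of all), the STAT site TTCNNNGAA (7.01%), the steroid response core TGTTCT (16.1%) or the HNF1 core GTTAAT (6.44%). Both strands were searched, and a match says only that these letters are present.

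Ratios within an array do not depend on a scaling factor common to all genes of an array, so survival and death-promoting genes were set against each other. The median log2 difference was 0.59 over the 5 measured death-promoting genes (Bak1, Bcl2l11, Bid, Bbc3 and Apaf1) and 0.50 over the 3 survival genes, a gap of 0.10. A floor at the 60th percentile turned that gap to -0.17 and left Bbc3 at 0.28. That value is a lower bound, since the floxed control signal of Bbc3 lay below that floor, and the turned gap rests on it. The gap was 0.02 with quantile normalization or with 32 added to each signal in place of the floor. It was 0.04 after removal of the loess trend. Bcl2l11 differed much as Bcl2 did, with a gap of 0.04 between their log2 differences, and its gap to Bcl2l1 was 0.18 and to Mcl1 0.42. The last gap is smaller than the distance between the lowest (0.25) and the highest (0.73) of the Mcl1 probe sets. Bid stood lower than each survival gene: its log2 difference minus that of Bcl2 was -1.28, minus that of Bcl2l1 -1.14 and minus that of Mcl1 -0.90. Minus that of Apaf1 it was -1.57.

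The agreement among probe sets of a gene was set beside that of other genes. Over 5864 genes with at least 2 probe sets above the floor on both arrays, the median distance between the log2 differences of the 2 brightest was 0.20. Of 2489 genes with at least 3 probe sets above the floor on both arrays, 52.8% had all of them on the same side of 0, and of 997 genes with at least 4, 45.5% did. Of the 5 genes described here with at least 3 such sets, Bcl2, Mcl1, Bcl2l11 and Bid had all of them on the same side and Bcl2l1 did not.

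The rest of the apoptosis pathway was read from 10 lists of 110 genes, of which 90 had a measured probe set. At least 2-fold higher were 2 of the 90, both on the p53 list, beside 3.53% of all measured genes, and none was at least 2-fold lower, beside 2.87%. Recentring on the glomerular markers left 0 of these genes past 2-fold on the higher side and put 11 past it on the lower side. Of all 13290 measured genes, the same recentring left 65 past 2-fold on the higher side and put 2555 past it on the lower side. Above 0 were 62 of the 90, beside the 56.1% of all measured genes, against which the counts of the lists below are to be read, and the median was 0.19. The p53 list had 14 of 17 measured genes above 0 and a median of 0.22 (-0.43 once recentred on glomerular markers). Cdkn1a, which encodes the cell cycle inhibitor p21, read 1449 in the double knockout against 656 in the floxed control (2.21-fold). Phlda3, an inhibitor of Akt, had 1138 in the double knockout against 518 in the floxed control (2.20-fold). Recentred, Cdkn1a and Phlda3 were at 0.49 and 0.48, short of 2-fold. Plk2 and Pidd1 followed at 1.73-fold and 1.71-fold. Zmat3 was 1.65-fold higher, while Perp and Sesn2 were 1.38-fold and 1.36-fold lower. Mdm2, which encodes the ligase that degrades p53, had 1016 in the double knockout against 979 in the floxed control.

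Other genes of the family, listed with genes that act beside it, differed in both directions. Of 10 measured BH3-only genes and pore relatives, 6 were above 0 and 4 below, with a median of 0.05 that became -0.05 after median centring and -0.60 after recentring on glomerular markers. Bmf, a BH3-only gene tied to the cytoskeleton, had 473 in the double knockout against 258 in the floxed control (0.88), with a second set at 0.44. Bnip3, which acts in mitophagy, had 3689 in the double knockout against 5765 in the floxed control (-0.64). Bad, whose product is held inactive by phosphorylation, was at 725 in the double knockout against 1105 in the floxed control (-0.61), but its second set read 0.57, so its direction was not settled. Among 4 other survival genes the median was 0.03, or -0.06 after median centring and -0.62 after recentring. Of these only Bcl2l2, which encodes Bcl-w, belongs to the Bcl2 family. It was at 0.12, with other sets from -0.28 to 0.21. The co-chaperone genes were Bag3 at 0.79, Bag4 at -0.06 and Bag1 at -0.30, so the median is not one of the family.

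The death receptors and adaptors were listed together with ligands and genes of necroptosis. Of 9 measured genes on that list, 7 were above 0, with a median of 0.52, or -0.14 after recentring. Fas had 807 in the double knockout against 543 in the floxed control, and the TNF receptor gene Tnfrsf1a had 3355 in the double knockout against 2343 in the floxed control. Mlkl, the executor of necroptosis, was 1.76-fold higher, and Tnfrsf21, which encodes death receptor 6, was 1.85-fold lower, with a second set at -1.06. The receptor genes Fas and Tnfrsf1a thus differed in the opposite direction to Bid before recentring, and after it both were below 0 as well. Tnfrsf21 differed in the same direction as Bid, so the receptor genes did not share a direction.

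Of 7 measured caspase genes, 6 were above 0, with a median of 0.43, or -0.22 after recentring. The list is mixed, since it holds inflammatory caspases and Casp8 beside those that act after release of cytochrome c. The largest differences were those of Casp12 (464 in the double knockout, 235 in the floxed control) and Casp4 (301 in the double knockout, 161 in the floxed control). Both belong to the inflammatory group of caspases, and a second Casp12 set was at 1.44. Casp2 was 1.55-fold higher. Casp8, which cleaves Bid, had 1913 in the double knockout against 1415 in the floxed control, a log2 difference of 0.43. Casp9, the partner of Apaf1, had 446 in the double knockout against 486 in the floxed control (-0.12), and the executioner gene Casp6 had 630 in the double knockout against 585 in the floxed control (0.11). The inhibitors of apoptosis had 6 of 7 above 0 and a median of 0.48, or -0.18 after recentring, with Birc5 at 0.79 and Birc3 at 0.69, although a second Birc3 set read -0.10.

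Genes for mitochondrial proteins released in apoptosis, listed with the membrane channels and carrier Vdac1, Vdac2 and Slc25a4, had the lowest median of the apoptosis lists, -0.46, with 7 of 8 below 0. The median was -0.19 with quantile normalization, and recentring on the glomerular markers put it at -1.11. Cycs, which encodes the cytochrome c that binds Apaf1, had 15099 in the double knockout against 21160 in the floxed control (-0.49). Its lowest set was at -1.16. Aifm1, which encodes apoptosis-inducing factor, had 2018 in the double knockout against 3376 in the floxed control (-0.74), and the nuclease gene Endog had 866 in the double knockout against 1445 in the floxed control (-0.74). These proteins also serve respiration and mitochondrial upkeep in living cells, and tubule markers were lower on the same array; their part in the result was not tested. Nucleases and caspase substrates had 8 of 9 above 0 (median 0.35, or -0.30 after recentring), FoxO and stress regulators 8 of 10 (median 0.19, or -0.47) and kinases and ligases acting on the family 4 of 9 (median -0.02, or -0.68). Lmna, which encodes lamins of the nuclear envelope, was at 0.94, but its other sets ran from -0.99 to 1.26, and Gsn, which encodes the actin-severing protein gelsolin, was at 0.68. The kinase gene Pim3 was at -0.68. Foxo3 and Foxo1, regulators of Bcl2l11, were at 0.22 and 0.36, and Ddit3, the stress factor CHOP, at 0.50.

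**Figure D3:**
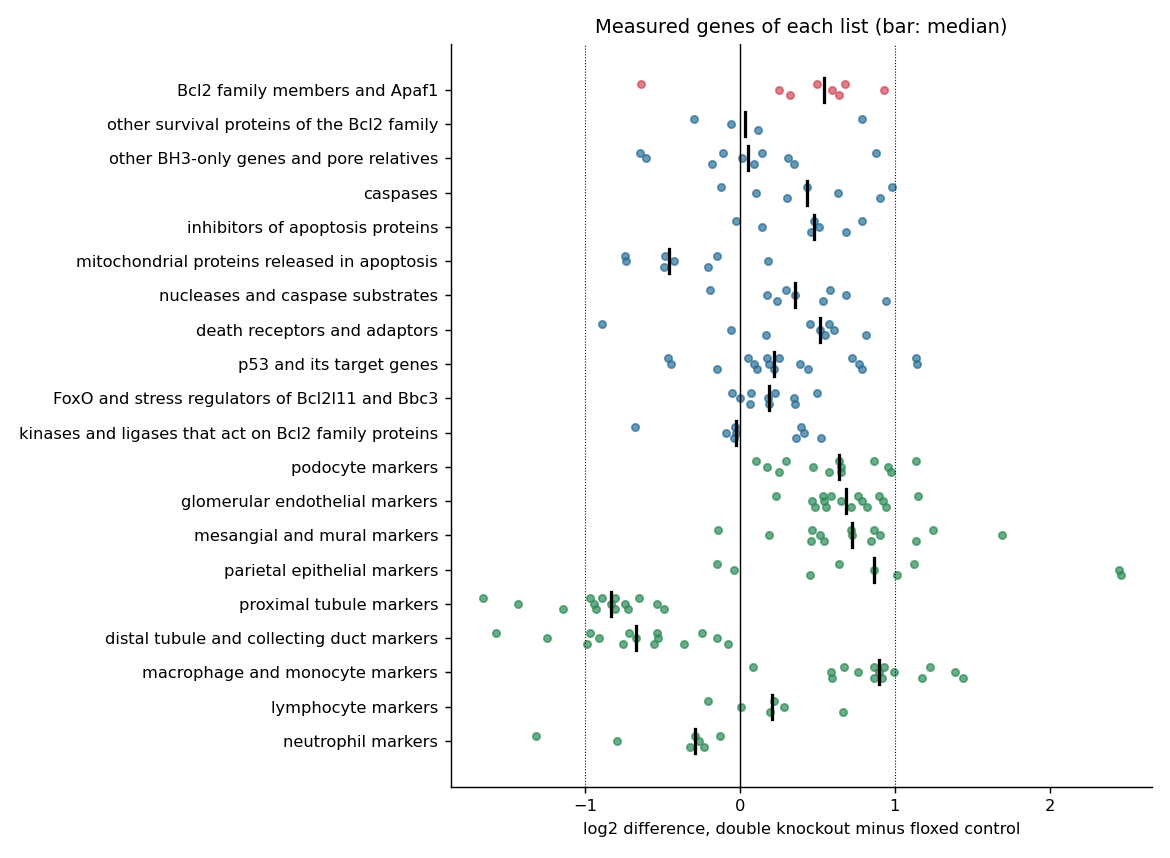
Log2 difference of each measured gene (points) by list with the list median (bar), for the 8 genes described here (red), other apoptosis lists (blue) and cell type markers (green), with dotted lines at 2-fold. The 8 genes have a median of 0.54 and Bid alone below 0, between the glomerular and the tubule marker lists; after recentring on glomerular markers their median is -0.11.

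Across the 12 alternatives Apaf1 lay between 0.28 and 0.93, Bcl2l11 between 0.02 and 0.71, and Bid between -1.30 and -0.62. Leaving recentring aside, Bcl2 lay between 0.34 and 0.64, Bcl2l1 between 0.15 and 0.50, Mcl1 between 0.16 and 0.59, Bak1 between 0.20 and 0.53, and Bbc3 between 0.28 and 0.59. The 0.28 of Bbc3 is a lower bound, from the floor at the 60th percentile. Without recentring, all 8 genes thus kept their direction.

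**Figure D4:**
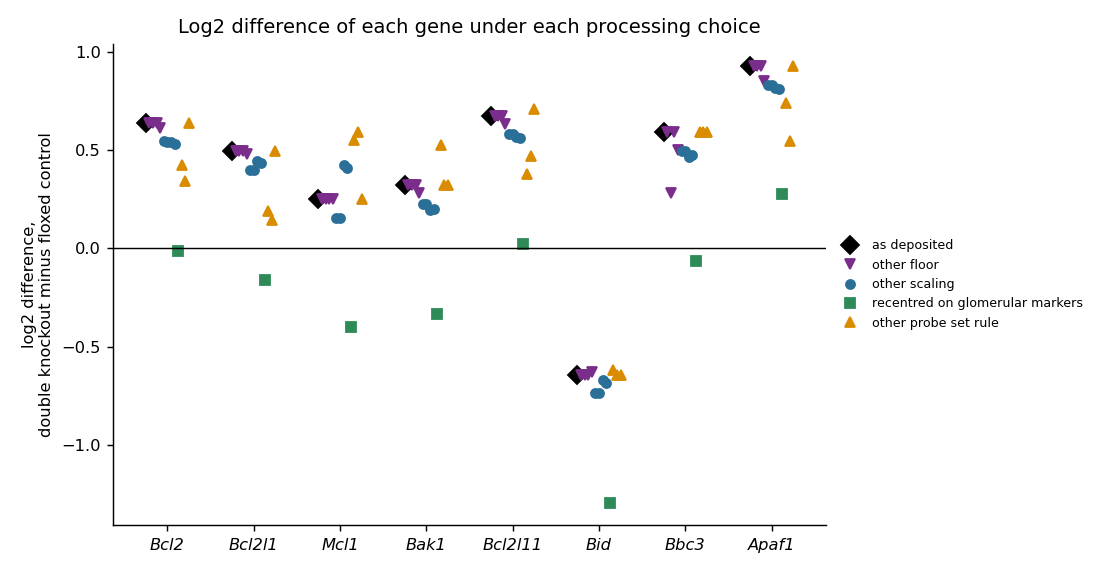
Log2 difference of each gene with the values as deposited (diamond) and under other floors, scalings and probe set rules. Bid stays below 0 and Apaf1 and Bcl2l11 above 0 throughout, while the other 5 genes cross 0 only where differences were recentred on glomerular markers (squares).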

How the data were processed

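Glomeruli were isolated by graded sieving and RNA was hybridised as biotinylated cRNA to 1-colour Affymetrix arrays, per the labels' protocols. The authors deposited 1 intensity per probe set and array, and MAS5 is the tool named in the submitters' processing notes; the version is not given in the sources used here. From the values, the trimmed mean (2% off each end) was 500.0 on both arrays. Values were used as deposited. Names came from the platform annotation held by GEO (932 had several genes and 9160 none listed), with 34741 identifiers matched to RefSeq (GRCm38.p6) for names. The probe set of highest mean log2 intensity stood for a gene, without cross-hybridising sets (_x_at) where another existed. The floor was the mean of the 40th percentiles of both arrays, and genes whose higher signal reached it were called measured. With 1 array per genotype there was no test, and the number of arrays limits the precision. All probe sets of the members are given; of each pathway list, every gene past 2-fold and some of the genes with the largest differences, at most 4 by rule, while Mdm2, Zmat3, Perp, Sesn2, Casp6, Casp9 and Tnfrsf1a were chosen after their values were seen. Members and lists were chosen with earlier results of these data known. Alternatives covered floors, scalings, probe set rules and fold thresholds. The steps were tested on simulated data, in Python 3.11.15 with pandas 2.3.3.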

Additional observations from a re-analysis of the deposited data

How the results depend on the processing

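The count of 0 genes at least 2-fold higher or lower was also found under the other floors, scalings and probe set rules, except that recentring on glomerular cell markers put 1 gene, Bid, at least 2-fold lower, together with 2 probe sets. Of all 13290 measured genes, that recentring put 2555 at least 2-fold lower and 65 at least 2-fold higher. Among probe sets, 1 was at least 2-fold higher with the floor at the 25th percentile or with no floor, and 1 was at least 2-fold lower after quantile normalization or removal of the loess trend. At 1.5-fold the counts were 4 genes and 11 probe sets higher, and 1 gene and 2 probe sets lower. The median of the members was between 0.41 and 0.54 under the alternatives other than recentring, which gave -0.11. A floor at the 60th percentile made the gap between death-promoting and survival genes -0.17, with Bbc3 then a lower bound. Recentring put Bcl2 at -0.01, Bcl2l1 at -0.16, Mcl1 at -0.40, Bak1 at -0.33 and Bbc3 at -0.06; the shift of 0.65 applies to every gene alike and puts the median of all measured genes at -0.59. For the other apoptosis lists, 1 gene was at least 2-fold lower with the floor at the 25th percentile, with the probe set of median difference or with gene-specific probe sets. The mean over the probe sets put 3 genes at least 2-fold higher. Recentring put 0 higher and 11 lower, beside the 65 and 2555 of all measured genes. At 1.5-fold 16 were higher and 6 lower, and at 3-fold 0 were higher. The median of the kinase and ligase list was 0.18 with the mean over probe sets and 0.36 with gene-specific probe sets. Signals near the floor, such as the dim Bcl2l11 and Bak1 sets, limit what a ratio can show. No paired analysis was possible because each genotype had 1 array.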
